A study of Trametes cinnabarina with 17 samples.

Results

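The transcription of 2 genes was followed across 6 carbon sources in the wood-degrading white-rot fungus *Pycnoporus cinnabarinus*, strain CIRM-BRFM 137. They are the genes of protein 1092, a predicted mannosidase of glycoside hydrolase family GH2, and of protein 8001, a predicted pectin-active enzyme of family GH28. They were taken by protein ID out of 10442 gene models. Their functions are predictions from the study's annotation, whose enzyme codes stand for a beta-mannosidase (1092) and an endopolygalacturonase (8001).

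The mycelium was grown for 3 days in liquid medium and its poly-A RNA was sequenced. Aspen (a hardwood), pine (a softwood), wheat straw (a grass) and a mixture of xylans and galactomannans, here called xylan-galactomannan, were given at 15 g/l and had 3 libraries each. Avicel, a crystalline cellulose, was given at 15 g/l and had 2 libraries, numbered 1 and 3. According to the labels these 5 media also held 2.5 g/l maltose, and the maltose medium, with 3 libraries, held 20 g/l maltose, although the study's text calls each substrate the sole carbon source. If the labels hold, substrate and maltose concentration cannot be told apart in a comparison against maltose. The study describes the libraries of a group as biological replicates of this single strain.

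Mannans are chains of mannose that occur in the hemicellulose of plant cell walls, and those of softwood and of seed gums carry galactose side groups. Endomannanases cut the chain into short oligosaccharides, and a beta-mannosidase then releases single mannose units from their ends. Pectin is rich in galacturonic acid, and endopolygalacturonases of family GH28 cut its unbranched stretches between galacturonic acid units.

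Both genes had their highest means on the 3 plant substrates and their lowest on maltose, and the levels on xylan-galactomannan and Avicel set them apart. On xylan-galactomannan, 1092 stood at 26.0% of the mean of the 3 plant substrate means, and on Avicel at 9.23%. Gene 8001 stood at 69.0% of its own plant mean on xylan-galactomannan and at 31.6% on Avicel. On maltose the shares were 7.39% for 1092 and 2.97% for 8001. The values are normalized read counts, that is, read counts that the authors divided by 1 size factor per library. Each is relative to all the mRNA of the culture, so fewer hyphae transcribing a gene and less of its RNA per hypha cannot be told apart.

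The total count ranged from 10668073 to 16176027 per library. The lowest count of 1092 was 332, in Avicel replicate 3, with an exact 95% Poisson interval of 297 to 370. The lowest count of 8001 was 558, in maltose replicate 3, with an interval of 513 to 606. These intervals cover counting error only. No 2 libraries of a group were near-copies, since chi-square per degree of freedom between the counts of 2 replicates was at least 8.50.

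The GH2 mannosidase gene 1092 had 4001, 4609 and 3969 normalized counts on aspen. It had 5667, 4906 and 5403 on pine, and 4216, 4525 and 4664 on wheat straw. The 9 plant substrate libraries thus lay close together, and in these normalized counts every pine library was above every library of both other substrates. This separation depended on the size factors. With counts divided by each library's total instead, pine replicate 2 fell below aspen replicate 2 and below every wheat straw library. On xylan-galactomannan it had 1328, 1213 and 1097 normalized counts. On Avicel it had 528 and 333, and on maltose 316, 357 and 360. Every xylan-galactomannan library lay below every plant substrate library and above every Avicel and maltose library, whereas the Avicel and maltose libraries overlapped.

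The GH28 gene 8001 had 15577, 21153 and 19030 normalized counts on aspen. It had 16848, 25630 and 16971 on pine, and 16915, 20376 and 25386 on wheat straw. The 3 plant substrates overlapped fully. On xylan-galactomannan it had 11590, 11757 and 17566 normalized counts, and its highest library exceeded 4 of the 9 plant substrate libraries. On Avicel it had 8069 and 4406, and on maltose 630, 648 and 484. Both Avicel libraries lay below every xylan-galactomannan library and above every maltose library.

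**Figure D1:**
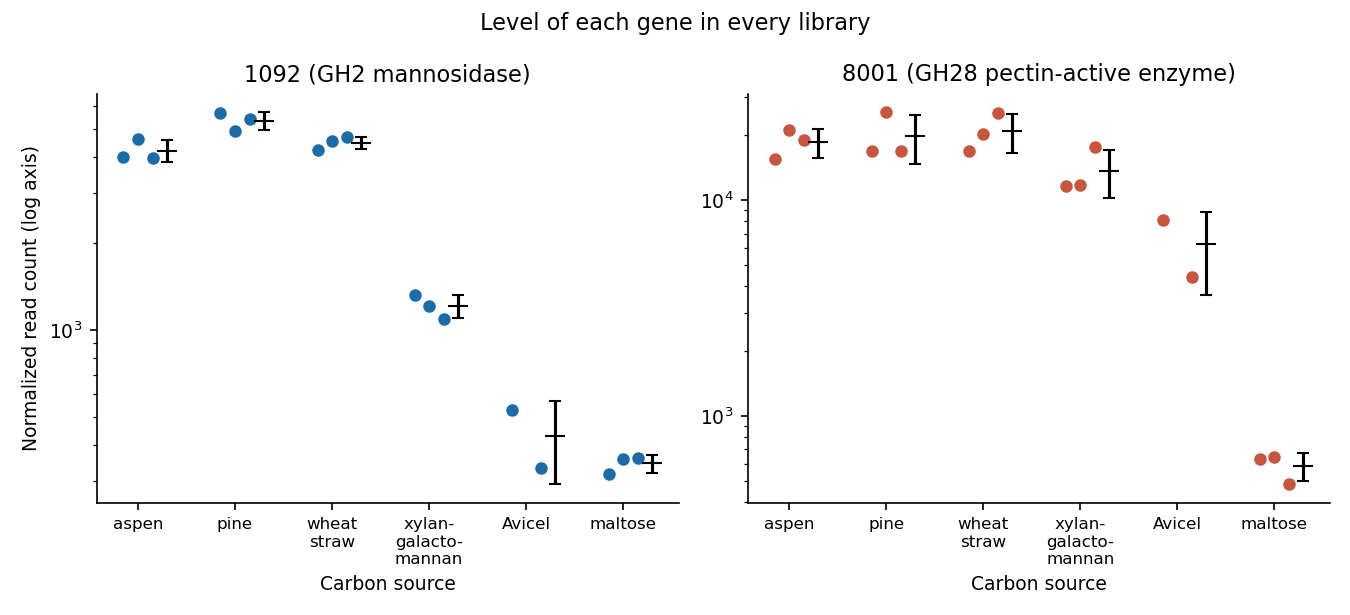
Normalized read count of 1092 (left) and 8001 (right) in each of the 17 libraries, on a log axis, by carbon source. Points are libraries, and the bar beside them is the mean ± SD (n = 3, and n = 2 on Avicel). The points of 1092 on xylan-galactomannan sit between 1097 and 1328, far below the plant substrates, whereas those of 8001 sit between 11590 and 17566 and reach into the range of the plant substrates.

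As group means, 1092 reached 5325 ± 386 normalized counts on pine, 4468 ± 229 on wheat straw and 4193 ± 360 on aspen (SD, n = 3 each). Xylan-galactomannan followed with 1213 ± 115 (SD, n = 3), then Avicel with 430 ± 138 (SD, n = 2) and maltose with 344 ± 24.3 (SD, n = 3). In this order only the steps from aspen to xylan-galactomannan and from xylan-galactomannan to Avicel passed the thresholds of the test given below. For 8001 the order was wheat straw with 20893 ± 4259, pine with 19816 ± 5035 and aspen with 18587 ± 2814 (SD, n = 3 each). It continued with xylan-galactomannan at 13638 ± 3403 (SD, n = 3), Avicel at 6237 ± 2590 (SD, n = 2) and maltose at 587 ± 89.8 (SD, n = 3). Here the steps from xylan-galactomannan to Avicel and from Avicel to maltose passed.

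Replicates of 8001 were more scattered than those of 1092. The coefficient of variation of 8001 was 15.1% to 25.4% in the 5 groups of 3 libraries, against 5.13% to 9.50% for 1092. On Avicel it was 41.5% for 8001 and 32.0% for 1092. Avicel replicate 1 was above Avicel replicate 3 for both genes, by 1.59 times for 1092 and 1.83 times for 8001. Over all 9153 genes with a value the median ratio of these 2 libraries was 1.00, and 6.03% of genes had a larger ratio than 1092 and 3.22% a larger one than 8001. The 11 other carbohydrate-active genes described below were also all higher in Avicel replicate 1, by 1.03 to 3.13 times. The part of this difference between the 2 libraries in the results on Avicel was not tested beyond leaving out each of them.

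Differences between carbon sources were tested with edgeR's quasi-likelihood test over 9162 genes, and p-values were adjusted by Benjamini-Hochberg. A gene was called where the adjusted p was under 0.05 and the log2 fold change passed 1 in either direction. The median gene moved by less than 0.06 in every comparison. The study had first selected gene clusters with a mean log2 count above 12 on plant substrates but not on maltose or Avicel. This cutoff applied to cluster means, and 8001 itself had a mean log2(normalized count + 1) of 12.5 on Avicel. From these clusters it kept both genes because they were raised on aspen, pine and wheat straw against maltose and Avicel. Those 6 comparisons are therefore given as a description. The study made no use of the xylan-galactomannan libraries in its selection, but the comparisons with them share the maltose, Avicel or plant substrate libraries that it did use.

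Against maltose, the log2 fold change of 1092 was 3.67 ± 0.16 on wheat straw, 3.91 ± 0.16 on pine and 3.58 ± 0.16 on aspen (± SE). That of 8001 was 5.12 ± 0.29 on wheat straw, 5.03 ± 0.29 on pine and 4.96 ± 0.29 on aspen. Across all genes, 9.53% were called higher on wheat straw, 13.7% on pine and 13.1% on aspen than on maltose. Against Avicel, 1092 had log2 fold changes of 3.38 ± 0.18 on wheat straw, 3.62 ± 0.19 on pine and 3.29 ± 0.18 on aspen. Those of 8001 were 1.75 ± 0.29 on wheat straw, 1.66 ± 0.29 on pine and 1.58 ± 0.29 on aspen. The shares of all genes called higher than on Avicel were 8.18% on wheat straw, 11.9% on pine and 10.2% on aspen. On all 3 plant substrates, 8001 had the larger change against maltose and 1092 the larger change against Avicel.

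On xylan-galactomannan both genes were called higher than on maltose, as were 6.97% of all genes. The log2 fold change was 1.79 ± 0.15 for 1092 (± SE, adjusted p = 7.0e-08) and 4.51 ± 0.28 for 8001 (± SE, adjusted p = 2.4e-09). Gene 8001 ranked 10th and 1092 185th among the 9162 genes by this log2 fold change. On Avicel, 8001 was called higher than on maltose, with a log2 fold change of 3.38 ± 0.28 (± SE, adjusted p = 4.3e-08), as were 6.01% of all genes. For 1092 the corresponding value was 0.29 ± 0.16 (± SE, adjusted p = 0.19), which was not called. Without Avicel replicate 1 the value of 1092 was -0.047, and without Avicel replicate 3 it was 0.62. In this comparison 8001 ranked 81st and 1092 2386th.

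**Figure D2:**
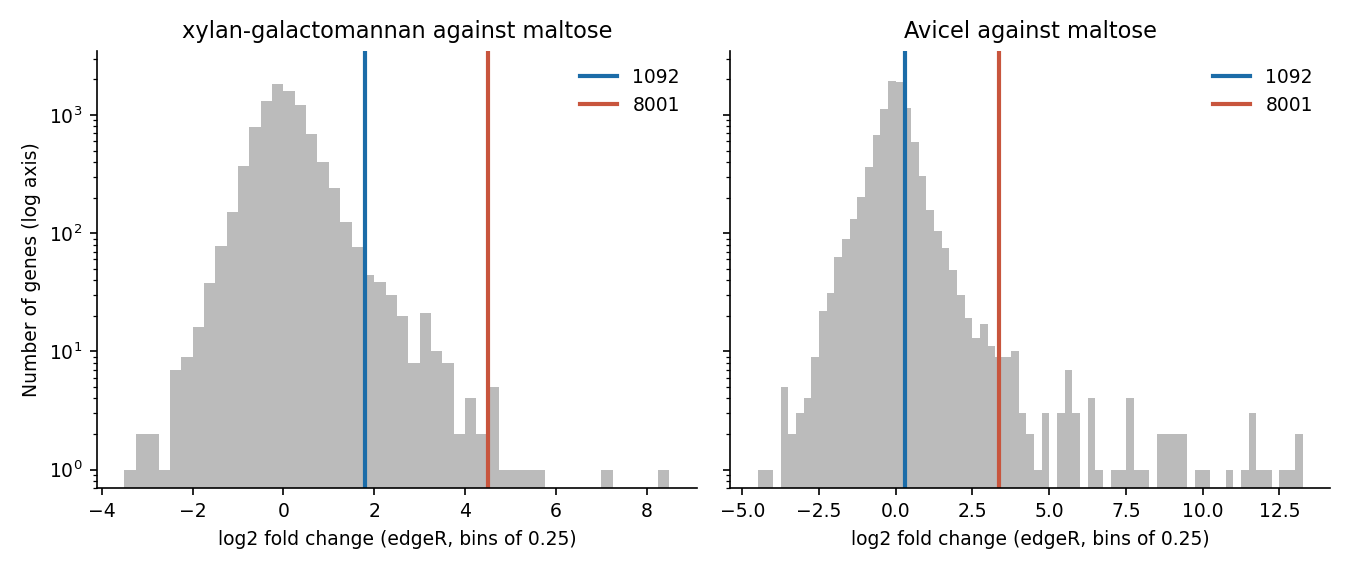
Distribution of the edgeR log2 fold change against maltose over 9162 genes, on xylan-galactomannan (left) and on Avicel (right), with the number of genes per bin on a log axis. Coloured lines mark the 2 genes. Gene 8001 lies in the upper tail in both panels, at 4.51 and 3.38, whereas 1092 lies at 1.79 on xylan-galactomannan and near the centre, at 0.29, on Avicel.

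Within the media that held the same amount of maltose, xylan-galactomannan was compared with Avicel and with each plant substrate. Against Avicel, 1092 was higher on xylan-galactomannan by a log2 fold change of 1.51 ± 0.17 (± SE, adjusted p = 2.1e-06). Gene 8001 was higher by 1.14 ± 0.28 (± SE, adjusted p = 0.0043), and 6.93% of all genes were called higher. The call of 8001 was lost without xylan-galactomannan replicate 3, with a log2 fold change of 0.90, and without Avicel replicate 3, with 0.76. That of 1092 was kept whichever library was left out.

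Against the plant substrates 1092 was called in every comparison and 8001 in none. Gene 1092 was lower on xylan-galactomannan than on aspen by a log2 fold change of -1.79 ± 0.15 (± SE, adjusted p = 3.2e-08). It was also lower than on pine, at -2.11 ± 0.15 (± SE, adjusted p = 7.7e-09), and than on wheat straw, at -1.87 ± 0.15 (± SE, adjusted p = 1.4e-08). Of all genes, 8.1% were called lower on xylan-galactomannan than on aspen, 11.5% than on pine and 7.76% than on wheat straw. The log2 fold change of 8001 was -0.45 ± 0.25 against aspen (± SE, adjusted p = 0.14), -0.52 ± 0.25 against pine (± SE, adjusted p = 0.074) and -0.61 ± 0.25 against wheat straw (± SE, adjusted p = 0.046). All 3 values are negative and the last is under the threshold on p but not past that on the fold change, so similar levels on these substrates are not shown.

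Neither gene was called between any 2 plant substrates. For 1092 the largest of these differences was that of pine over aspen, with a log2 fold change of 0.33 ± 0.14 (± SE, adjusted p = 0.062). It was 0.09 ± 0.14 for wheat straw over aspen (± SE, adjusted p = 0.68) and -0.24 ± 0.14 for wheat straw over pine (± SE, adjusted p = 0.18). For 8001 the values were 0.07, 0.16 and 0.09 for the same 3 pairs, with an SE of 0.24 each and adjusted p of 0.82, 0.65 and 0.79. Each of these 3 changed sign when a single library was left out. Between pine and aspen 12.1% of all genes were called in either direction, between wheat straw and aspen 7.73%, and between wheat straw and pine 7.84%.

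The ratio of the 2 genes within a library does not depend on how libraries are scaled, and so measures whether they moved by different amounts. On the log2 scale, with 1 added to each normalized count, the ratio of 8001 to 1092 was 3.13, 3.28 and 4.0 on xylan-galactomannan and 3.93 and 3.72 on Avicel. On maltose it was 0.99, 0.86 and 0.43. In the 9 plant substrate libraries it ranged from 1.57 to 2.44. All xylan-galactomannan and Avicel libraries lay above that range and all maltose libraries below it.

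The mean log2 ratio on xylan-galactomannan exceeded that on the plant substrates by 1.39, with means of 3.47 and 2.07 (n = 3 and 9, two-sided exact permutation test, p = 0.0091, adjusted over 3 comparisons p = 0.014). On Avicel it was higher by 1.75, with means of 3.83 and 2.07 (n = 2 and 9, exact permutation p = 0.036, adjusted p = 0.036). On maltose the difference was -1.31, with means of 0.76 and 2.07 (n = 3 and 9, exact permutation p = 0.0091, adjusted p = 0.014). These are the smallest p-values that the numbers of libraries allow, with the 9 libraries of 3 plant substrates treated as 1 group. With only 1 Avicel library left the difference was 1.65 without replicate 1 and 1.86 without replicate 3, and the exact permutation test can then give no p below 0.2. The Avicel and maltose comparisons use the libraries in which the study selected the genes, although selecting both as raised on plant substrates does not set which of them moved more.

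**Figure D3:**
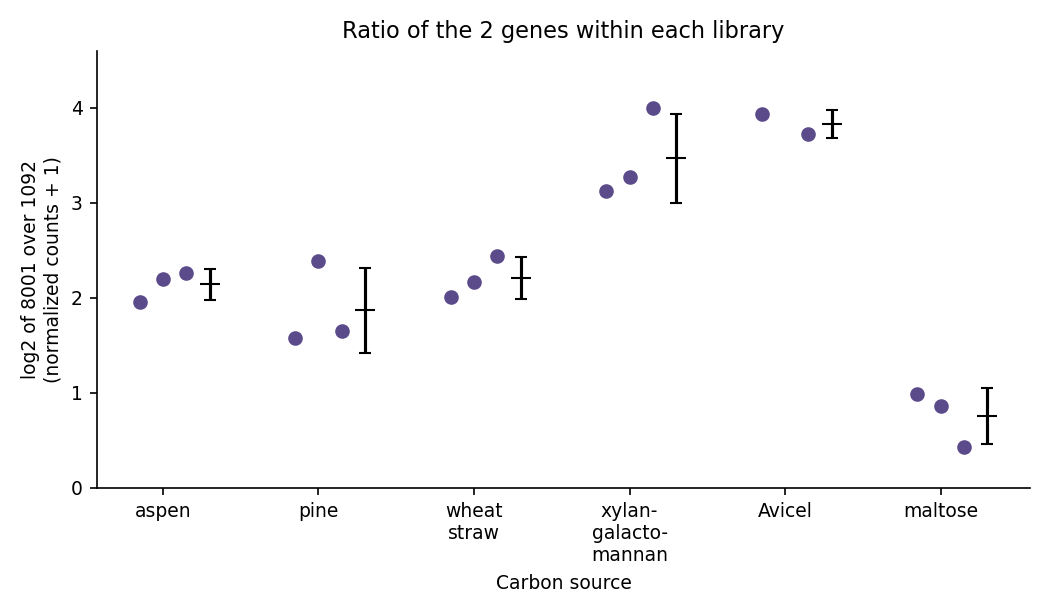
Log2 ratio of 8001 to 1092, each as normalized count + 1, in each library by carbon source. Points are libraries, and the bar beside them is the mean ± SD (n = 3, and n = 2 on Avicel). The plant substrate libraries sit between 1.57 and 2.44, the xylan-galactomannan and Avicel libraries between 3.13 and 4.0, and the maltose libraries at 0.99 or below.

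Other carbohydrate-active genes were described from 2 lists, which the study had also selected as raised on 1 or more plant substrates. Of the families in the pectin list, the study's text names GH28 and GH88 as pectin-active but not GH35. GH88 enzymes remove unsaturated uronic acids from oligosaccharides, and GH35 enzymes are mostly beta-galactosidases. The list holds 3 genes: 3798, a second GH28 enzyme, 8220 of family GH88 and 7004 of family GH35. All 3 were called higher on each plant substrate than on maltose, with a median log2 fold change of 2.68 on wheat straw, 2.77 on pine and 3.15 on aspen, beside 9.53%, 13.7% and 13.1% of all genes. On xylan-galactomannan all 3 were called higher than on maltose, with values of 1.30 ± 0.18 for 3798, 1.01 ± 0.20 for 8220 and 1.22 ± 0.21 for 7004 (± SE, adjusted p of 2.2e-05, 0.00056 and 0.00018), beside 6.97% of all genes. The call of 8220 lay at the fold threshold. It was lost with upper-quartile factors, at 0.97, without maltose replicate 3, at 0.96, and without xylan-galactomannan replicate 1 or 3, at 0.91 and 0.92. The second GH28 gene was thus also raised on xylan-galactomannan, and its fold change was less than the 4.51 of 8001.

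On Avicel 1 of the 3 genes of the pectin list was called higher than on maltose, beside 6.01% of all genes. This was 8220, with a log2 fold change of 1.60 ± 0.21 (± SE, adjusted p = 1.3e-05). The GH28 gene 3798 had -0.22 ± 0.20 (± SE, adjusted p = 0.42) and 7004 had 0.36 ± 0.23 (± SE, adjusted p = 0.25), so that neither was called where 8001 had 3.38. Between xylan-galactomannan and the plant substrates, all 3 were called lower than on aspen and on wheat straw, beside 8.1% and 7.76% of all genes. Against pine 2 of 3 were called lower, beside 11.5% of all genes, and 3798 had -0.82 ± 0.18 (± SE, adjusted p = 0.00064), short of the fold threshold. Without xylan-galactomannan replicate 2 it was called, at -1.01. The medians were -2.14 against aspen, -1.76 against pine and -1.67 against wheat straw. These genes were selected as raised on plant substrates, which favours lower values on another medium, so the counts are a description. Gene 8001, which was called in none of these, differed in that from the 3 genes of the pectin list, but the difference between the genes was not tested.

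The hemicellulose and mannose list holds 8 genes: 7245 of family GH27 (mostly alpha-galactosidases, which remove galactose side groups from galactomannan), 929 of GH95 (mostly fucosidases), 4566 of GH3 (a family with beta-glucosidases and beta-xylosidases), 9738 of GH31 (a family with alpha-glucosidases and alpha-xylosidases), 598, 6857 and 6860 of GH92 and 10255 of GH125 (both families of alpha-mannosidases). The study's text instead calls 7245 a predicted arabinosidase, although its tables give it the enzyme code of an alpha-galactosidase, and calls 929 a predicted xyloglucanase. Alpha-mannosidases act on the mannose of glycoproteins and not on the beta-linked chain of plant mannan. Against maltose, all 8 were called higher on aspen and wheat straw and 7 on pine, where 10255 had a log2 fold change of 0.48 ± 0.16 (SE). The medians were 2.93 on wheat straw, 2.78 on pine and 2.24 on aspen, and the shares of all genes called higher are those given for the pectin list.

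On xylan-galactomannan 1 of the 8 was called higher than on maltose, the GH92 gene 6860, at 2.38 ± 0.30 (± SE, adjusted p = 8.6e-06). The background was 6.97% of all genes, so this count is near the share over all genes. The list's median was 0.71. Without xylan-galactomannan replicate 1, 2 of the 8 were called, with 10255 at 1.05 as the second. The GH27 gene 7245 had 0.81 ± 0.12 (± SE, adjusted p = 5.4e-05), past the threshold on p and not that on the fold change. The same held for 10255, at 0.92 ± 0.16, and 929, at 0.74 ± 0.29 (± SE, adjusted p of 0.00026 and 0.042). The values of the remaining genes ran from 0.08 to 0.67. The log2 fold change of 1092, at 1.79, exceeded those of 7 of the 8 listed genes. Compared with the plant substrates, 8 of 8 were called lower on xylan-galactomannan than on aspen, 6 than on pine and 7 than on wheat straw, with medians of -1.86, -2.10 and -2.26, beside 8.1%, 11.5% and 7.76% of all genes. The selection of the listed genes as raised on plant substrates favours such lower calls, so these counts are a description. The values of 1092, between -2.11 and -1.79, fell within the span of the listed genes, and 1092 was selected in the same way.

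On Avicel, 2 of the 8 were called higher than on maltose, beside 6.01% of all genes, with a list median of 0.24. These were the GH92 genes 6857, at 2.76 ± 0.38 (± SE, adjusted p = 1.6e-05), and 598, at 1.25 ± 0.27 (± SE, adjusted p = 0.0017). The third GH92 gene, 6860, had 0.28 ± 0.32 (± SE, adjusted p = 0.55). Without Avicel replicate 1 gene 6857 was still called, at 1.75, and 598 was not, at 0.55 (adjusted p = 0.15).

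**Figure D4:**
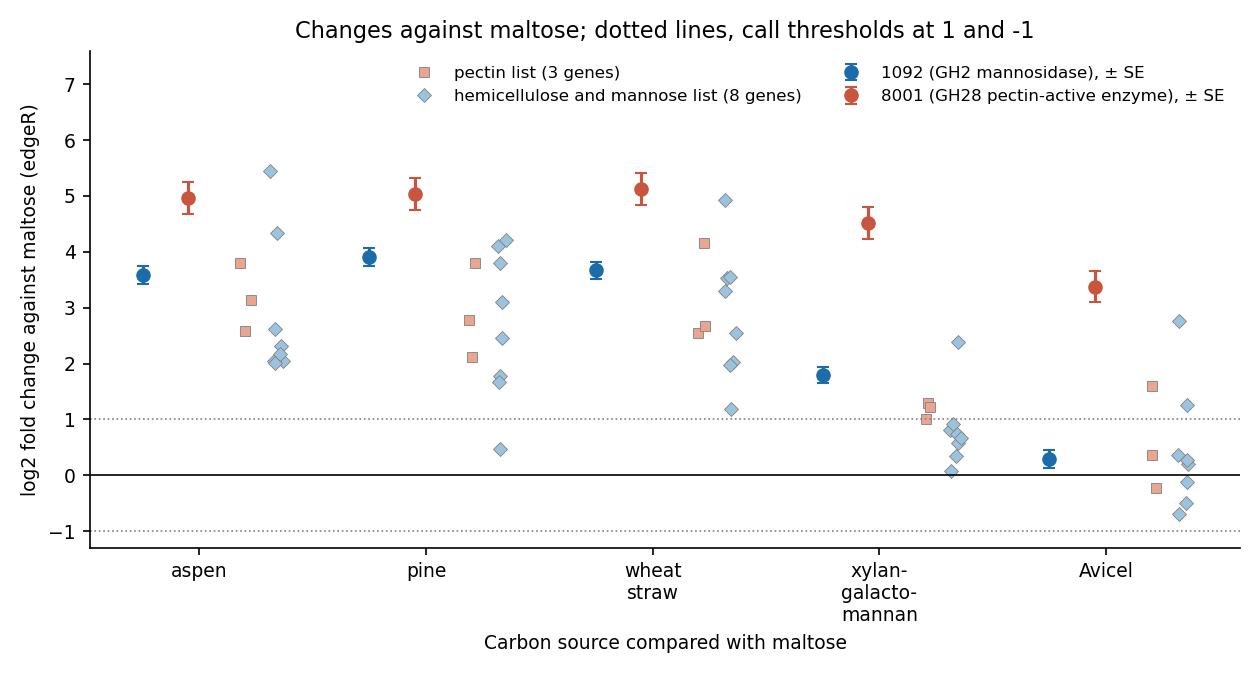
Log2 fold change against maltose (edgeR) of 1092 and 8001, with SE bars, on 5 carbon sources. The 3 genes of the pectin list and the 8 of the hemicellulose and mannose list are shown without error bars. Dotted lines mark the fold thresholds at 1 and -1. Gene 8001 stays above 3 on all 5 carbon sources, whereas 1092 and most listed genes are nearer 0 on xylan-galactomannan and Avicel than on the plant substrates.

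Genes with a pattern like that of each member were found by Pearson's r of log2(normalized count + 1) over the 17 libraries, across 9152 other genes. These libraries come from 6 groups and share 1 normalization, so r mainly reflects the group levels and is a description. The most alike to 1092 were 8611 and 6820, each with r = 0.98 and no function in the sources used here. With an annotated carbohydrate-active family the most alike by r was the GH35 gene 7004, with r = 0.98, and 229 genes had an r over 0.9. This choice depended on the measure. By Spearman's rho 7004 was at rank 274 for 1092, with 0.84, and the listed genes 929 and 4566 were closer, with 0.97 and 0.94. For 8001, in turn, 7004 was at rank 2 by Spearman's rho, with 0.89.

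Gene 7004 shared part of the pattern of 1092 on its own scale. Its mean was 19404 ± 1948 normalized counts on wheat straw, 15322 ± 2942 on pine and 14975 ± 1355 on aspen, each with its SD over 3 libraries. Xylan-galactomannan gave 2525 ± 59.9 (SD, n = 3). Avicel gave 1394 ± 704 (SD, n = 2), and maltose 1064 ± 2.93 (SD, n = 3). As with 1092, xylan-galactomannan lay between the plant substrates and Avicel, and the Avicel and maltose libraries overlapped.

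Fewer genes followed 8001, with 37 at an r over 0.9. The most alike were 7922 with r = 0.98 and 7921 with r = 0.97, both without a function in the sources used here. Gene 7922 averaged 542 ± 91.0 normalized counts on aspen and 427 ± 61.5 on xylan-galactomannan (SD, n = 3 each). The 2 Avicel libraries averaged 223 ± 22.7 (SD), and the 3 maltose libraries 22.1 ± 3.63 (SD). It thus also had an intermediate level on Avicel. Without the maltose libraries r was 0.86 for 7922 and 0.80 for 7921, so the likeness was less within the 5 other carbon sources. By Spearman's rho over all 17 libraries it was 0.76 for 7922 and 0.68 for 7921. The most alike annotated gene was 10401, an expansin-like gene, with r = 0.90. Members of that family loosen cell walls. Without the maltose libraries its r was 0.86, and the listed genes 3798, 7245, 6860 and 7004 were closer, with 0.90, 0.89, 0.89 and 0.87. By Spearman's rho 10401 was at rank 46. Between 1092 and 8001 themselves r was 0.84, which put 8001 at rank 448 among the genes most like 1092 and 1092 at rank 159 among those most like 8001. Without the maltose libraries r between the members was 0.88, above the 0.86 of 7922 and of 10401 with 8001. The ranks were then 234 for 8001 and 54 for 1092. By Spearman's rho over all 17 libraries the value was 0.78, at ranks 533 and 203.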

How the data were processed

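Poly-A RNA of mycelium was sequenced as paired reads. The deposited read counts per gene model were made by the authors with TopHat2 and HTSeq. Their versions, the use of strand and the treatment of multiply mapped reads are not stated in the sources used here. Counts shared with a near-identical gene copy would therefore be uncertain. The deposited normalized signal equals those counts after division by DESeq size factors (version 1.5 in the submitters' processing notes, DESeq2 in the study's methods), since the ratio of both tables was 1 constant per library. It is linear and not scaled by gene length, so levels were not compared between genes. Of 10442 gene models, 829 had no count in any library.

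Counts were tested with edgeR 4.0.16 in R 4.3.3 with TMM factors and filterByExpr, which left 9162 genes. All 17 libraries entered 1 quasi-likelihood fit with no term but the group, and p-values were adjusted by Benjamini-Hochberg per comparison. The study names the thresholds used here, and both an FDR and a Bonferroni correction. SEs are the log2 fold change over the square root of F. Ratios used an exact permutation test over libraries (scipy 1.17.1), whose p is the smaller one-sided p doubled. An earlier form that counted absolute differences gave smaller p-values and was replaced when it differed from scipy's. Scripts were tested on simulated data. DESeq2 1.42.0, other scaling factors, no filter, only the groups compared, Bonferroni, a replicate block and leaving out each library were run as alternatives. The share of all genes called is given only for the main test and thresholds. Counts of listed genes under an alternative therefore have no background to be judged by, and a higher count is not a stronger result.

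The genes, the lists and the tests were chosen with earlier results of these data known. Named genes are both members, all genes of both lists and, for each member, the 2 most alike genes and the most alike of those annotated as carbohydrate-active in the study's tables of selected genes. Those tables hold chosen genes, so others may be closer. The files do not pair protein IDs with gene names. Of the IDs, 0 matched the RefSeq table of the species, so sequences and positions are not given.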

Additional observations from a re-analysis of the deposited data

How the results depend on the processing

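The fold changes and ratios of both members kept their direction, and their calls the same side of the thresholds, under the alternatives run, apart from the following. For 1092, pine over maltose was 3.79 with upper-quartile factors. Leaving out 1 library gave -0.047 to 0.62 for Avicel over maltose, and 3.00 to 3.66, 3.32 to 3.99 and 3.09 to 3.75 for aspen, pine and wheat straw over Avicel. Avicel replicate 1 was left out in -0.047 and the 3 highest. For 8001, aspen and wheat straw over Avicel ranged from 1.21 to 2.08 and from 1.38 to 2.25, the highest again without Avicel replicate 1.

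Xylan-galactomannan over Avicel ranged from 0.76 to 1.63 for 8001. The call was lost without xylan-galactomannan replicate 3 (0.90, adjusted p = 0.025), without Avicel replicate 3 (0.76, adjusted p = 0.088) and with Bonferroni adjustment (1.14, adjusted p = 1.0). With the adjusted p alone, xylan-galactomannan over wheat straw was called for 8001 (-0.61). Of the uncalled differences of 8001 between plant substrates, pine over aspen ranged from -0.15 to 0.18 and was -0.041 without aspen replicate 1 and -0.15 without pine replicate 2. Wheat straw over aspen ranged from -0.00087 to 0.30, the lowest without wheat straw replicate 3. Wheat straw over pine ranged from -0.075 to 0.32 and was -0.018 without pine replicate 1, -0.0064 without pine replicate 3 and -0.075 without wheat straw replicate 3. The cause was not tested.

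On xylan-galactomannan against maltose, the 3 calls of the pectin list fell to 1 with Bonferroni adjustment. They fell to 2 where 8220 was lost, with upper-quartile factors and without 1 of 3 libraries. Of the hemicellulose and mannose genes, 2 were called without xylan-galactomannan replicate 1 (range 1 to 2) and 4 with the adjusted p alone. On Avicel against maltose that list had 1 call with Bonferroni adjustment and 1 without Avicel replicate 1 (range 1 to 2), and on pine 8 with the adjusted p alone. Over all alternatives, 2 to 3 pectin list genes were called lower on xylan-galactomannan than on pine. The other list had 7 to 8 against aspen, 4 to 7 against pine and 6 to 7 against wheat straw. No count here has a background share.

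Replicate numbers were not taken to pair the libraries in the main tests, and a replicate block was run as an alternative. Over 40 pairs of libraries with the same number in different groups, the correlation of deviations from the group means ran from -0.24 to 0.24 with a median of 0.046, and 13 were over 0.1. Over 80 pairs with different numbers the median was -0.028, and 10 were over 0.1. With a replicate block, 8001 on xylan-galactomannan over Avicel was 1.08 (edgeR adjusted p = 0.0091), and no call of the members changed. The ratio difference of 1.75 on Avicel had an exact permutation p of 0.13 within the replicate block. It was 1.65 without Avicel replicate 1 and 1.86 without Avicel replicate 3, where no p below 0.2 is possible.

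Per total count, mean levels became 4764 on pine and 407 on maltose for 1092, and 695 on maltose for 8001. The pine libraries of 1092 then overlapped with those of aspen and wheat straw. The 2 Avicel libraries limit every result on Avicel.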
